A study of Macaca mulatta with 8 samples.

Results

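The hedgehog pathway was examined at 6 genes in an ATAC-seq study of rhesus macaque cortex cells: the receptors PTCH1 and SMO, the inhibitor SUFU, and the transcription factors GLI1, GLI2 and GLI3. In ATAC-seq, the Tn5 transposase inserts sequencing adapters into open DNA, and a peak marks a stretch with many insertions. The locus of a gene was its body and the 5 kb upstream of it in the Mmul_10 assembly. Of 72358 merged regions with a macaque peak, 83 overlapped these 6 loci. GLI2 held 34 of them, GLI3 23, SUFU 10, PTCH1 9, SMO 4 and GLI1 3.

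Hedgehog ligands bind PTCH1, which otherwise holds SMO inactive. Released SMO acts at the primary cilium to free the GLI proteins from SUFU. GLI1 is an activator and, with PTCH1, a classic target gene of the pathway. GLI2 is the main activator, and GLI3 acts largely as a repressor. In the embryonic forebrain, sonic hedgehog patterns ventral tissue, while GLI3 is needed for normal dorsal telencephalon and is made by cortical radial glia, the progenitor cells of the cortex.

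The cells were primary cells of the cortex, taken at post-conceptional days 50, 60, 80 and 85 and named E50, E60, E80 and E85. Tissue was frozen, dissociated with papain and grown as a monolayer in a medium with FGF2, EGF and BDNF that enriches progenitors, so the cells had been in culture before the assay. The labels name no treatment and no engineered allele. Each stage had 1 culture and 2 technical libraries from it, 8 libraries in all. Stage and culture cannot be told apart, and no test between stages was possible.

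The measurement was a call: a region was called at a stage when it held at least 1 peak of that stage's set. A lifted peak is one that the peak names mark as moved to this genome from sets the labels leave undefined, and such peaks counted for no stage. The stage sets held 19833 peaks at E50, 61956 at E60 and 60278 at E80, with 30701 at E85. E50 and E85 had fewer calls at most loci, and E60 with E80 is the pair of nearly equal size. A region without a call may still have been open below the threshold of the peak caller. How deeply each library was read was not used here. Of all regions, 26.0% were called at E50, 82.8% at E60 and 80.3% at E80, with 40.1% at E85.

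The labelled tissue was checked against promoter calls of marker genes. Of all 21122 protein-coding genes, 44.3% had a called promoter at E50, 64.7% at E60 and 63.2% at E80, with 53.0% at E85. All 7 radial glia genes listed (PAX6, SOX2, HES1, VIM, FABP7, NES and HOPX) had a called promoter at every stage. None of 5 microglia genes had one at any stage. The CSF1R locus had 2 regions, both called at E60 and E80, with 1 called at E50 and 1 at E85. At PTPRC there was 1 region, called at E60 and E80. Of 5 endothelial genes, 3 had a called promoter at E60, 2 at E80 and none at E50 or E85. Of 7 interneuron and ventral forebrain genes, 5 had one at E60 and at E80 and 2 at E50 and at E85. The 3 intermediate progenitor genes (EOMES, NEUROG2 and PPP1R17) all had one at E60 and at E80, none had one at E50, and EOMES alone had one at E85. Among 4 oligodendrocyte lineage genes, 2 had a call at E50 and 3 at each later stage, and 3 of 4 astrocyte genes had one at every stage, GFAP among them. Calls were fewer for mesenchyme and mural cells, with 1 of 6 genes at E50 and 2 at each later stage, and for hindbrain, where EN2 was the only one of 5 with a call, at E60 and E80. The interneuron and intermediate progenitor lists thus had fewer promoter calls than radial glia at E50 and E85, the stages with small peak sets. At E60 the interneuron, endothelial and oligodendrocyte shares (71.4%, 60.0% and 75.0%) lay near the 64.7% of all genes. Lists this short tell little about cell type.

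At the 6 hedgehog loci together, 18 of the 83 regions were called at E50 (21.7%), 73 at E60 (88.0%) and 67 at E80 (80.7%), with 33 at E85 (39.8%). These shares lay close to those of all regions given above. A region was called promoter when a protein-coding or lncRNA gene starts within 1000 bp of it, and distal otherwise. There were 13 promoter and 70 distal regions. Of the distal ones, 14.3% were called at E50, 85.7% at E60 and 77.1% at E80, with 32.9% at E85, beside 17.7%, 79.4%, 77.4% and 31.7% of all 55607 distal regions.

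**Figure D1:**
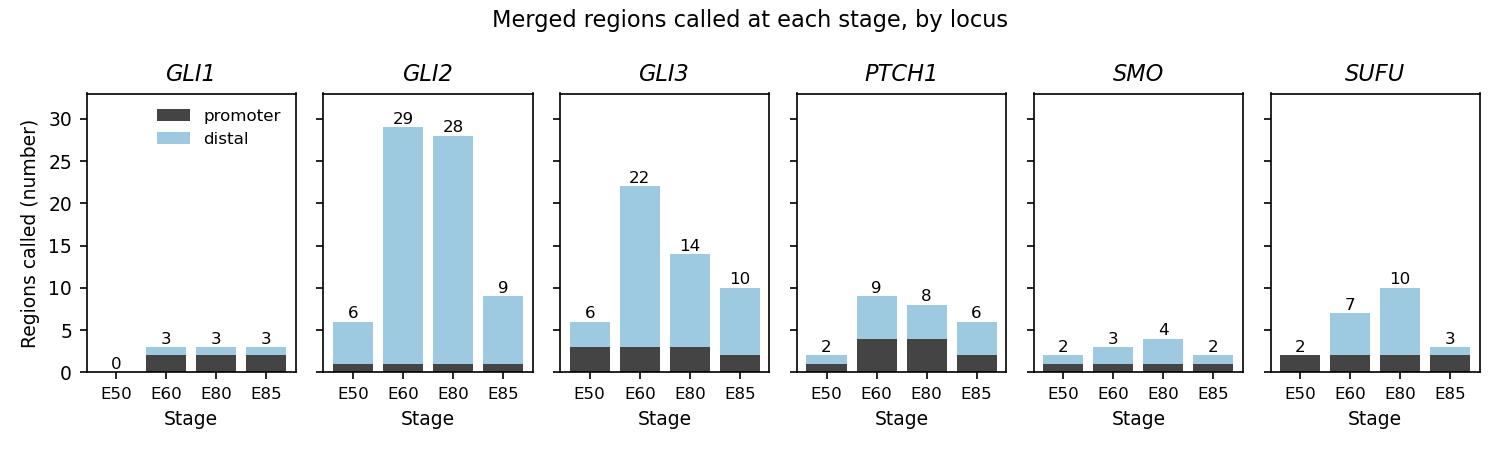
Number of merged regions called at each stage at each of the 6 loci, split into promoter (dark) and distal (light), with the total above each bar. GLI2 and GLI3 hold most regions, GLI3 falls from 22 at E60 to 14 at E80 where GLI2 goes from 29 to 28, and GLI1 has no call at E50.

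The calls were nested. Only 6 of the 15 possible combinations of stages occurred at the 6 loci: E60 alone (16 regions), E80 alone (10), E60 and E80 (23), E60, E80 and E85 (16), all 4 stages (17), and E50, E60 and E80 (1). Those 6 combinations hold 95.1% of all regions, and 23.5% of all regions were called at all 4 stages, beside 20.5% here. All 33 regions called at E85 were also called at E60 and at E80, as were 88.8% of the E85 regions in the whole table. Of the 18 regions called at E50, 17 were called at every stage (90.5% in the whole table). Regions called at more stages were mostly wider. The median was 330.5 bp for E60 alone, 259 bp for E80 alone and 539 bp for E60 and E80. It was 850 bp for E60, E80 and E85 and 1338 bp for all 4 stages. Over all regions these medians were 345, 273, 430, 556 and 1005 bp in the same order. The region called at E50, E60 and E80 was 529 bp wide. Because a region is merged from the peaks of its stages, more stages can by themselves make it wider. Lifted peaks are merged in as well. At the 6 loci they were in 94.1% of regions called at all 4 stages, 68.8% at E60 alone and 20.0% at E80 alone. Their part in the widths, and in the region centres used for motifs, was not tested.

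PTCH1, the receptor that binds hedgehog ligands, lies on the plus strand at chr15:112307095-112382443. Of its 9 regions, 2 were called at E50, 9 at E60 and 8 at E80, with 6 at E85. The gene has several annotated starts, and its regions differed along them. The region over the start farthest upstream (chr15:112306247-112308537, 2291 bp) was called at E60 and E80 and at neither E50 nor E85. The next region, chr15:112312473-112313865, covers the promoter of the lncRNA LOC114672867, lies 1747 bp from a start of PTCH1, and was likewise called at E60 and E80 alone. The widest region of the locus, chr15:112314060-112316542 (2483 bp), covers a start inside the first intron and was called at all 4 stages. Its neighbour chr15:112316647-112318467, 56 bp from a start, was called at E60, E80 and E85. So the promoter region of PTCH1 with calls at every stage was a downstream one. That region is also within the promoter distance of LOC114672867, and the calls do not tell the genes apart. Of the 5 distal regions, all intronic, 1 was called at all 4 stages (chr15:112327346-112328197), 3 at E60, E80 and E85, and 1 at E60 alone (chr15:112330111-112330621). Its narrowest region was 482 bp wide.

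The upstream PTCH1 promoter held the only match to the GLI motif GACCACCCA, the consensus of GLI factors, within 150 bp of the centre of any of the 83 regions. The match lies on the plus strand at chr15:112307311-112307319, 216 bp after the first start, in a noncoding part of exon 1 of 2 annotated transcripts. A search of whole regions added 1 further match, on the minus strand at chr15:112314722-112314730, in intron sequence of the downstream promoter region and 575 bp from its centre. Both are printed here because PTCH1 is the pathway's best known target. Sequences are of the plus strand of Mmul_10, 5′ to 3′, regions are numbered along the gene, and capitals mark the motif, which reads as its reverse complement in the second line.
PTCH1 region 1, chr15:112307301-112307329: tggcgcggcaGACCACCCAcgccgagggc
PTCH1 region 3, chr15:112314698-112314754: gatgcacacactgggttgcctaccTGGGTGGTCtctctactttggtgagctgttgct
In windows of 150 bp on either side of the centre, 0.301% of all regions and 0.251% of all promoter regions held the motif on either strand. Over whole regions these were 0.674% and 1.03%. The first match thus lay in a promoter without a call at E50 and E85, and the second in a promoter with calls at all 4 stages. A match is a description of the letters and shows no binding.

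SMO, the membrane protein that passes the signal on, lies at chr3:155439974-155465469 and had 4 regions. Of these, 2 were called at E50, 3 at E60 and 4 at E80, with 2 at E85. Its promoter region (chr3:155439592-155441108, 1517 bp, the widest of the locus) was called at all 4 stages, and so was a region over exon 2 (chr3:155455033-155455609). That region lies 1159 bp from an annotated start, just outside the promoter limit. The narrowest, chr3:155459029-155459239 (211 bp) in intron 6, was called at E80 alone. The last, chr3:155462519-155462764 in intron 9, was called at E60 and E80.

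SUFU, which holds GLI proteins in the cytoplasm, lies at chr9:103025853-103159176. Calls numbered 2 at E50, 7 at E60 and 10 at E80, with 3 at E85, so every region of the locus was called at E80. Both promoter regions (chr9:103023711-103025048 and chr9:103025342-103026953) were called at all 4 stages. They are also within the promoter distance of ACTR1A, the neighbouring gene, and the calls do not tell the genes apart. Of the 8 distal regions none was called at E50. The widest region, chr9:103153070-103154721 (1652 bp), covers exon 12 and was called at E60, E80 and E85. Those called at E80 alone were chr9:103109446-103109637 (192 bp, the narrowest), chr9:103146371-103146584 (214 bp) and chr9:103151187-103151464 (278 bp). None of these 3 reached 300 bp.

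GLI1, the activator whose own transcription responds to the pathway, lies at chr11:57035716-57048124. It was the exception at E50, with 0 of its 3 regions called, and had all 3 called at E60, E80 and E85. Its promoter regions were chr11:57034933-57036200 over the first start and chr11:57036841-57039036 (2196 bp, the widest), which is also the promoter of the lncRNA LOC107000897. The narrowest, chr11:57032149-57032402 (254 bp), lies 3314 bp upstream of the start over an exon of the neighbouring gene INHBE. Among the members, 5 of 6 had a promoter call at E50 and all 6 at E60, E80 and E85. Of all 21122 protein-coding genes, 44.3% had one at E50, 64.7% at E60 and 63.2% at E80, with 53.0% at E85. GLI1 shares its promoter calls, present at E60, E80 and E85 and absent at E50, with 8.90% of protein-coding genes. With an E50 set of 19833 peaks, the missing call is not evidence of a closed promoter.

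GLI2, the main activator, lies on the minus strand at chr12:10099436-10358074 and had the most regions, 34. Only 31 of 16325 loci with a region (0.190%), GLI2 included, had as many. This rank was not adjusted for length: the locus spans 264 kb and had 12.9 regions per 100 kb. Calls numbered 6 at E50, 29 at E60 and 28 at E80, with 9 at E85. Its promoter region (chr12:10356516-10358956, 2441 bp, the widest) was called at all 4 stages. The other 33 were distal, nearly all in introns 1 and 2. The 5 distal regions called at all 4 stages lay 44.4, 131.4, 143.3, 158.4 and 180.0 kb after the start. A set of 14 regions, 41.2% of the locus, was called at E60 and E80 alone, the combination that holds 29.4% of all regions. Regions called at E60 and not E80 numbered 6 and the reverse 5. The narrowest region (chr12:10180460-10180648, 189 bp) was called at E80 alone. No region lay in the last 54.4 kb of the gene.

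GLI3, the repressor, lies at chr3:72970942-73250654 and had 23 regions. Calls numbered 6 at E50, 22 at E60 and 14 at E80, with 10 at E85. It has a pair of promoters, with regions centred at -0.1 and 88.2 kb from the first start, and both were called at all 4 stages (chr3:72969380-72972384, 3005 bp, and chr3:73058419-73059768, 1350 bp). Another region within the promoter distance, chr3:73060242-73060770, 948 bp from the second start, was called at E50, E60 and E80, the only such combination at the 6 loci. Of 20 distal regions, 3 were called at all 4 stages, at 4.5, 145.3 and 170.8 kb from the first start. Another 9 were called at E60 alone: 1 upstream at -2.1 kb and the others at 8.7, 22.9, 84.5, 115.2, 121.2, 133.7, 167.6 and 249.4 kb. Only 1 was called at E80 alone, chr3:73231885-73232151, at 261.1 kb. The regions at E60 alone were thus spread over the gene, while the widest gap, 75.2 kb, lay between the regions at 173.6 and 249.4 kb and held no call at any stage. The narrowest region was chr3:73092057-73092263 (207 bp), called at E60 alone.

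**Figure D2:**
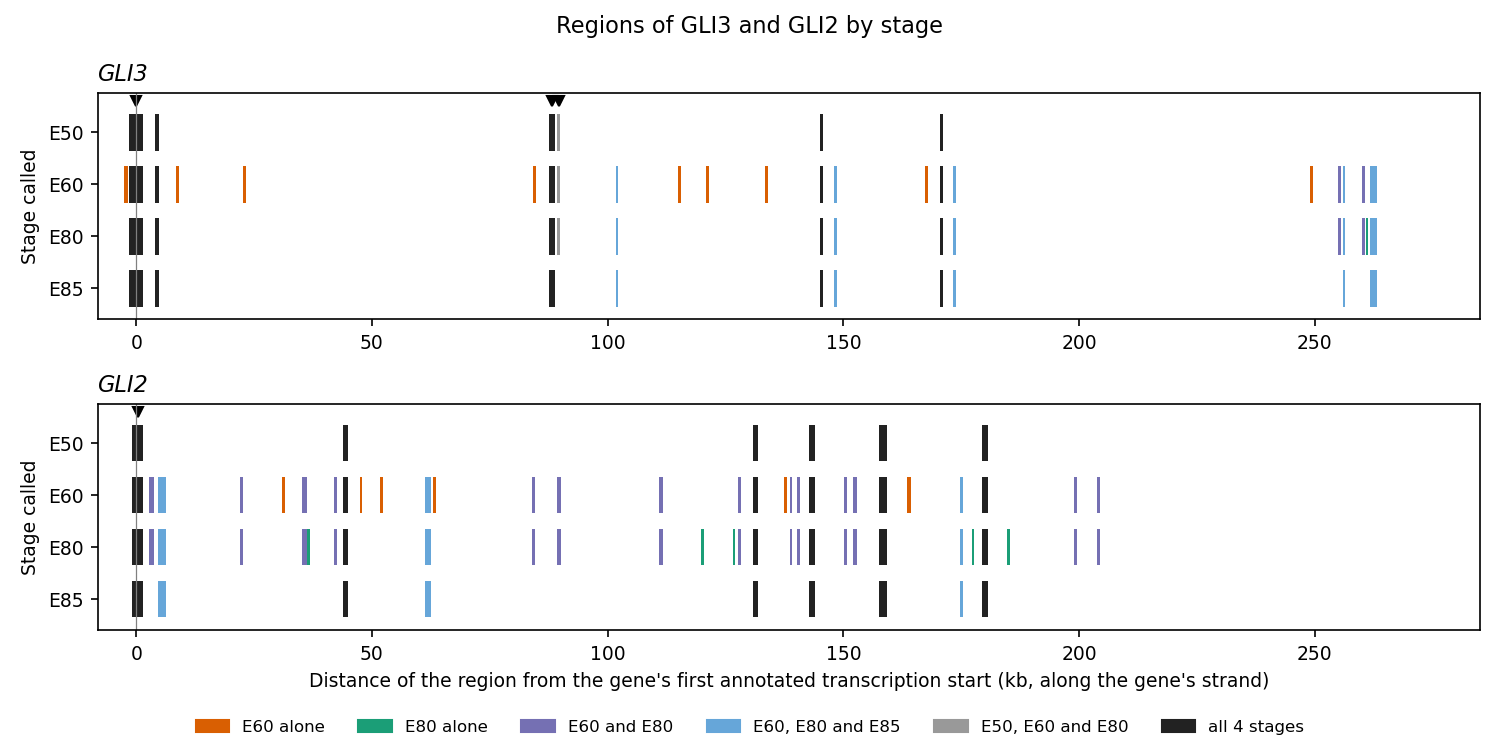
Regions of GLI3 (top) and GLI2 (bottom) against the distance in kb from the first annotated start, along the strand of the gene, with 1 row per stage called. Colour gives the combination of stages, triangles mark promoter regions, and the narrowest regions are drawn at a fixed minimum width. GLI3 has 9 regions at E60 alone and 1 at E80 alone, and GLI2 has 6 and 5.

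Between E60 and E80, 16 of the 83 regions were called at E60 and not E80 and 10 the other way. Over all regions 17.4% were called at E60 and not E80 and 14.9% at E80 and not E60, and here the shares were 19.3% and 12.0%. E80 thus had 38.5% of the 26 discordant regions (exact Clopper-Pearson 95% interval 20.2 to 59.4, for counting error only), against 46.1% over all regions. Among regions without a lifted peak the counts were 5 and 8, so the larger side turned round. All regions showed the same turn, from 11835 at E60 alone and 9599 at E80 alone to 5840 and 6923 without a lifted peak. Among regions of at least 300 bp the counts at the hedgehog loci were 11 and 3. This limit lies between the median widths over all regions, 345 bp for E60 alone and 273 bp for E80 alone. Its effect on the counts over all regions was not tested. Grouped by age, early-only regions (E50, E60 or both, and no later stage) and late-only regions (the reverse) gave the same 16 and 10, beside 16.8% and 15.6% of all regions. At GLI3 they were again 9 and 1.

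The members did not share a direction. GLI3 had 9 regions at E60 and not E80 and 1 the other way, so E80 had 10.0% of its 10 discordant regions (exact interval 0.253 to 44.5). The interval lies below the 46.1% of all regions, but GLI3 was known for this count when the genes were chosen and the interval is not a test. Among the GLI3 regions without a lifted peak, 6 in number, the counts were 3 and 1. Among its regions of at least 300 bp they were 7 and 0. GLI2 had 45.5% (16.7 to 76.6), near the value over all regions. At SUFU all 3 discordant regions were on the E80 side (29.2 to 100) and at SMO 1 of 1 (2.5 to 100). At PTCH1 the only such region was on the E60 side (0 to 97.5). The intervals of SUFU, SMO and PTCH1 are wide and all hold the 46.1% of all regions. Without GLI3 the other 5 loci had 7 regions at E60 and not E80 and 9 the other way (56.2% on the E80 side, 29.9 to 80.2).

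**Figure D3:**
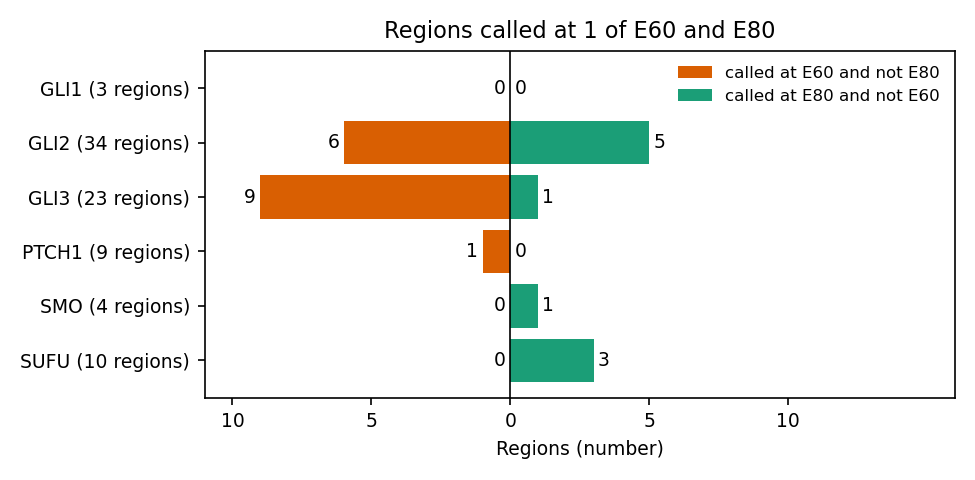
Regions called at E60 and not E80 (left bars) and at E80 and not E60 (right bars) at each locus, in numbers of regions. GLI3 has 9 against 1, GLI2 6 against 5, SUFU 0 against 3, and GLI1 none.

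Set among other loci, the GLI3 difference was near the edge of the range. Its E60 side exceeded its E80 side by 8 regions, and 23 of 16325 loci (0.141%, GLI3 included) had a difference at least as large, which favours loci with many regions. Among the 216 loci with at least 20 regions, the median share called at E60 and not E80 was 19.2%. GLI3 had 39.1%, and 12 of these loci (5.56%, GLI3 included) reached it. GLI2 had 17.6%, below the median. The share called at E80 and not E60 was 4.35% at GLI3 and 14.7% at GLI2 beside a median of 15%. Of the 216 loci, 21 (9.72%, GLI3 included) had a share as low as that of GLI3. Of the distal regions of GLI3, 45.0% were called at E60 and not E80 and 5.00% the other way, beside 20.0% and 18.0% of distal regions in all protein-coding loci.

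Several marker lists also had more regions at E60 and not E80 than the reverse. The interneuron and ventral forebrain list had 28 of its 29 regions called at E60 and 17 at E80, with 12 called at E60 and not E80 and 1 the other way. GAD1, which makes the transmitter GABA, gave 5 of these 12, and DLX1 and GAD2 gave 3 each. DLX5 and NKX2-1 had no promoter call at any stage. The endothelial list had 7 against 3 among 16 regions, with CDH5 without any region, and FLT1 gave 5 of the 7 and 2 of the 3. The radial glia list had 6 against 2 among 36 regions, and both of the 2 were at VIM. Over all regions the shares were 17.4% and 14.9%, so the E60 side of the radial glia list was near that of all regions. The part of such cells in the GLI3 calls was not tested. In these bulk samples, fewer cells of a type and less open DNA per cell cannot be told apart.

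Among loci with at least 10 regions, 883 in number, the likeness of 2 loci was measured by the total variation distance between the shares of their regions in the 15 combinations of stages, where 0 is identical and 1 shares nothing. GLI3 was nearest to CHD7 (0.14, 12 regions), SDK2 (0.16, 26 regions) and CORO2B (0.16, 22 regions), with a median distance to all loci of 0.43. CHD7, a chromatin remodeller, had 5 regions at E60 and not E80 and none the other way. SDK2, a cell adhesion gene, had 11 against 1, and CORO2B 6 against 1. This excess at E60 follows from choosing the loci by their mix of stages. GLI2 was nearest to SGMS1 (0.05), DNMT3A (0.05) and SIK2 (0.06) with a median of 0.26, so its mix of stages was a common one. SUFU was nearest to ARNTL (0.05), TACC1 (0.06) and EXOC4 (0.08) with a median of 0.35. GLI1, SMO and PTCH1 had under 10 regions and were not compared.

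The 9 GLI3 regions called at E60 alone often held the letters of AP-1. Each of 14 motifs was searched on both strands within 150 bp of the centre, a window wider than the narrowest regions. Beside those spelled out with their counts, these were TEAD (ACATTCC), POU (ATGCAAAT), RFX (GTTGCCA), TCF/LEF (ATCAAAG) and STAT (TTCCNGGAA), and the letters of RFX and NFI can overlap in part. The AP-1 motif TGACTCA, which reads TGAGTCA on the other strand and is bound by FOS and JUN dimers, was in 5 of these 9 regions (55.6%) and in 11.6% of all 10575 distal regions called at E60 alone. It was in none of the 6 E60-alone regions of GLI2. The 5 sites are printed below with 24 bases on either side, since they carry this difference. Capitals mark the motif.
GLI3 region 1, chr3:72968829-72968883: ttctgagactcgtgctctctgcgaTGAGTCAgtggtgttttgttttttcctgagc
GLI3 region 10, chr3:73086063-73086117: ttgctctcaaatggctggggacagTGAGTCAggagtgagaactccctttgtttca
GLI3 region 11, chr3:73092169-73092223: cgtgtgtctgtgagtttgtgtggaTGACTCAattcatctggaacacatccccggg
GLI3 region 15, chr3:73138653-73138707: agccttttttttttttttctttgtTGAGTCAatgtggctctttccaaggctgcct
GLI3 region 18, chr3:73220304-73220358: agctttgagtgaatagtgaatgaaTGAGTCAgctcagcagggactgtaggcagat
The first lies upstream of the gene, the next 2 in intron 3, and the last 2 in introns 4 and 10. The distance of the motif from the centre was 16, 23, 36, 106 and 14 bp in that order. The AP-1 motif was singled out after the values of all 14 motifs were seen, and the count is a description of 9 regions.

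Other motifs of the GLI3 E60-alone regions lay on both sides of the background. SOX letters (ACAAAG or ACAATG) were in 7 of 9, beside 45.2% of all distal E60-alone regions, and the MEIS motif TGACAG in 5 of 9, beside 22.9%. The E-box CAGCTG was in 0 of 9, beside 32.4%, and the NFI site letters TTGGCA in 0 of 9, beside 26.8%. The E-box CATCTG was in 3 of 9 (26.7% in the background) and the homeobox motif TAATTA in 1 of 9 (15.9%). GLI2 differed: its 6 E60-alone regions held CAGCTG in 3 and AP-1 in none. Within 100 bp of the centre, a window chosen after the data were seen, the GLI3 E60-alone regions held SOX letters in 6 (34.9% in the background) and MEIS in 3 (16.4%), and CAGCTG was in 1 of the 6 GLI2 regions. Over all distal regions, within 150 bp, CAGCTG was in 15 of 33 at GLI2 and 1 of 20 at GLI3, and SOX letters in 12 of 33 and 15 of 20. AP-1 was in 8 of 33 (24.2%) at GLI2 and 7 of 20 (35.0%) at GLI3. Within 100 bp it was in 4 of 33 (12.1%) and 6 of 20 (30.0%). The loci also differ in base composition, with a median GC content of 57.3% over GLI2 regions and 46.2% over GLI3 regions (52.2% over all regions). Its part in the motif counts was not tested.

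**Figure D4:**
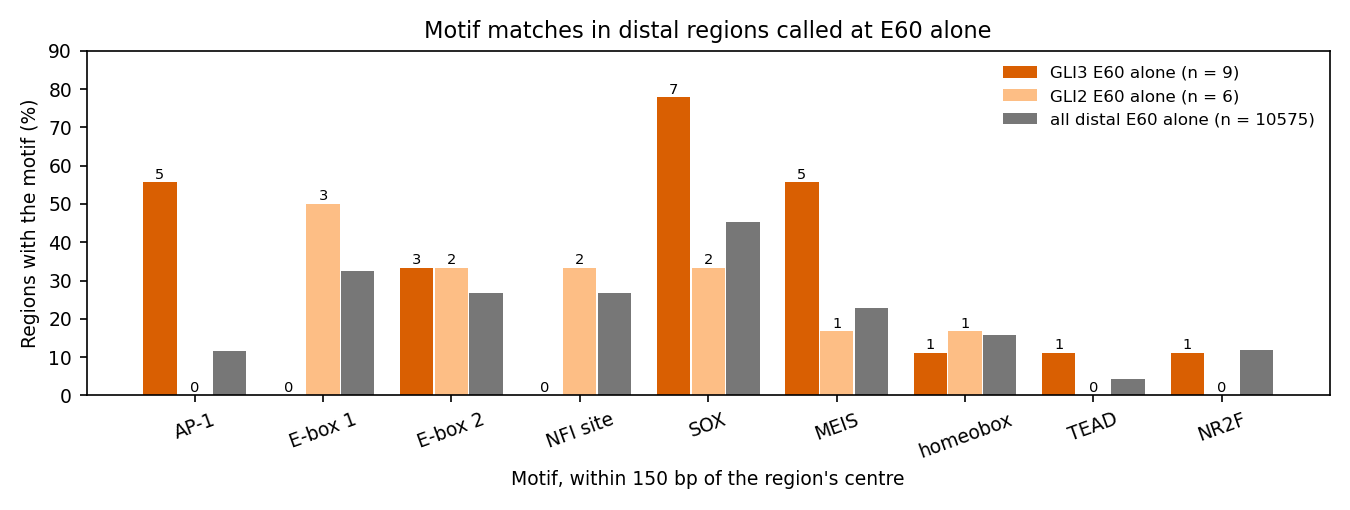
Share of distal regions called at E60 alone that hold each motif within 150 bp of the centre, for GLI3 (9 regions), GLI2 (6 regions) and all loci and intergenic DNA (10575 regions), with the number of regions above the bars of GLI3 and GLI2. E-box 1 is CAGCTG and E-box 2 is CATCTG. AP-1 is in 5 of 9 GLI3 regions and 11.6% of all, and E-box 1 and the NFI site in none of the 9.

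The 10 regions called at E80 alone (5 at GLI2, 3 at SUFU, 1 at SMO and 1 at GLI3) had AP-1 in 3, or 30.0%, below the 43.7% of all distal regions called at E80 alone. The NR2F motif AGGTCA was in 5 of 10, beside 21.6%, but within 100 bp of the centre it was in 1 of 10, beside 15.3%. The 3 AP-1 sites are shown for comparison with those of GLI3, again with 24 bases on either side.
GLI2 region 17, chr12:10237977-10238031: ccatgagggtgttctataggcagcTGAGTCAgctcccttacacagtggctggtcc
SMO region 3, chr3:155459061-155459115: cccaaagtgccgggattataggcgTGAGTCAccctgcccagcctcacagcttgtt
SUFU region 9, chr9:103151322-103151376: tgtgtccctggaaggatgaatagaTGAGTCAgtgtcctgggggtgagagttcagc
GLI3's own E80-alone region had none of the 14 motifs within 150 bp of its centre. Its central bases are printed because it is the only GLI3 region called at E80 and not at E60.
GLI3 region 22, chr3:73231918-73232118: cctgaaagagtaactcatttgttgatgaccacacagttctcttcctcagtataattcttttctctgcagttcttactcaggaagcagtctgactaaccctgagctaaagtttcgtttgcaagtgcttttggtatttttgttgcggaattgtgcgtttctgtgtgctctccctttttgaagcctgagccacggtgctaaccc

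Distal regions called at E60 and E80 alone, 21 at the 6 loci, held CAGCTG in 52.4% and AP-1 in 47.6%, beside 25.0% and 32.7% of all distal regions of that combination. Most of them (14 of the 21) are regions of GLI2. Within 100 bp of the centre these were 38.1% and 33.3%, beside 18.6% and 28.0%. Over all 83 regions the shares were closer to the background: AP-1 in 24.1% (21.1% of all regions), CAGCTG in 27.7% (24.4%) and SOX letters in 39.8% (35.1%).

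Of the wider pathway, 43 further genes were listed, with 167 regions, 25 called at E60 and not E80 and 23 the other way. Over all regions 17.4% were called at E60 and not E80 and 14.9% the other way, and the shares of the list lay near these. A promoter call was present for 24 genes at E50 (55.8%), 35 at E60 (81.4%) and 35 at E80 (81.4%), with 27 at E85 (62.8%), each above the share of all protein-coding genes given for GLI1. All 6 genes of turnover and transport (SPOP, BTRC, CUL3, KIF3A, NUMB and ITCH) had a promoter call at every stage. Of the 7 ligand and release genes, 1 had a call at E50, 4 at E60 and at E80 and 3 at E85. The ligands SHH, IHH and DHH had none at any stage. Their loci had 4, 1 and 3 regions, all called at E60 and E80, with 2, 1 and 1 of them called at E85. The transport gene DISP1 and the acyltransferase HHAT had a promoter call at every stage but E50, and SCUBE2, which helps release the ligand, at E60 and E80.

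All 7 co-receptors and receptor-level antagonists had a promoter call at E60 and E80, 4 at E50 and 5 at E85. BOC, a co-receptor, lacked the call at E50. HHIP, which traps the ligand, and GPC3, a glypican, had it at E60 and E80 alone. Of 12 cilium and kinase genes, 8 had a call at E50, 11 at E60 and 11 at E80, with 9 at E85. GPR161, a ciliary inhibitor of the pathway, and KIF7, a ciliary kinesin, had it at E60 and E80, EVC2 and the kinase GRK2 at every stage but E50, and EVC at E50 alone.

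Of 11 targets and ventral patterning genes, 5 had a promoter call at E50 (45.5%) and 4 at E85 (36.4%). At E60 and at E80, 7 had a call (63.6%). The shares at E50, E60 and E80 lay near the 44.3%, 64.7% and 63.2% of all protein-coding genes. At E85 the share lay below the 53.0% of all genes. CCND1, CCND2, BCL2 and OLIG2 had it at every stage and MYCN at E60 and E80. The ventral genes NKX2-1 and NKX6-2 and the floor plate gene FOXA2 had none, and the FOXA2 locus had no region. NKX2-2 had a call at E80 alone, FOXF1 at E60 alone, and GSX2, a ventral telencephalon gene, at E50, E60 and E80. The largest differences between E60 and E80 were 2 regions against 0, at BTRC and GSX2. All other genes differed by at most 1 region, GPC3 (3 against 2) among them. Most of these loci hold few regions, which limits such differences: BTRC had 4 and GSX2 3. Of the 43, 8 had more regions on the E60 side, 8 more on the E80 side and 27 as many on both.

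**Figure D5:**
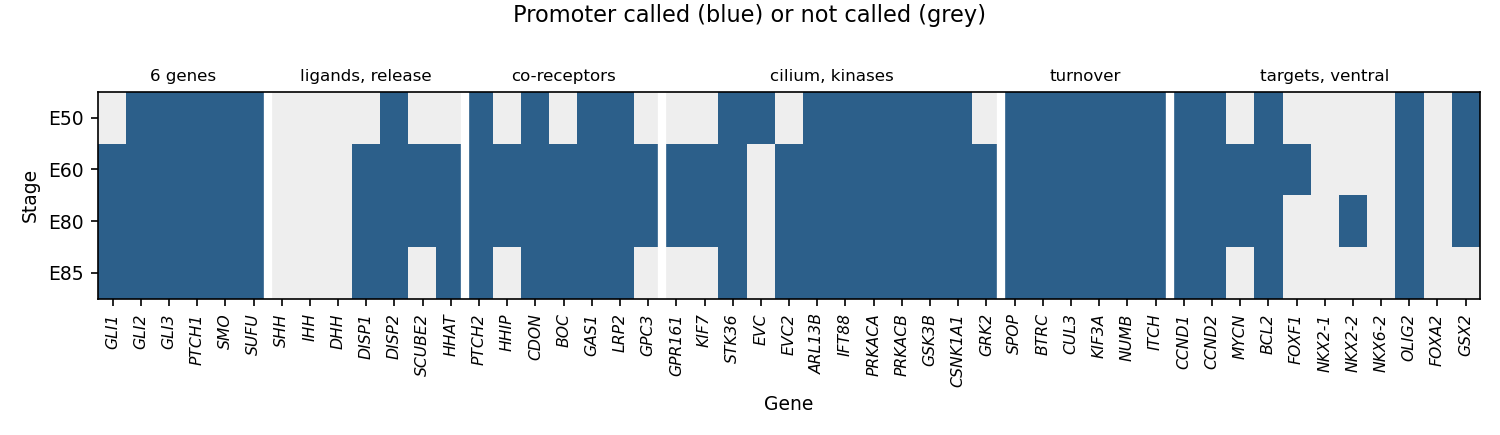
Promoter calls of the 6 genes and of 43 further pathway genes, by stage and grouped by role. Blue marks a called promoter and grey none. GLI1 is the only one of the 6 without a call at E50, and SHH, IHH, DHH, NKX2-1, NKX6-2 and FOXA2 have none at any stage.

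The limit of 5 kb upstream set the edge of each locus. The nearest region beyond it lay 6.22 kb upstream of GLI1 (called at E60 and E80) and between 20.9 and 27.5 kb upstream of the other 5 genes. Downstream, it lay 0.978 kb from SMO, 3.44 kb from GLI1, 3.97 kb from GLI3 (called at all 4 stages), 7.73 kb from SUFU, 22.8 kb from PTCH1 and 72 kb from GLI2. Per 100 kb of locus there were 17.2 regions at GLI1, 13.1 at SMO, 12.9 at GLI2, 11.2 at PTCH1, 8.08 at GLI3 and 7.23 at SUFU. GLI3 and SUFU had the fewest per 100 kb of the 6.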

How the data were processed

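ATAC-seq of 8 libraries followed the Omni-ATAC protocol, per the labels' protocols. Cutadapt 4.4, Bowtie2 2.5.1, SAMtools 1.15 and the build rheMac10, which names Mmul_10, are given per the submitters' processing notes. For the peak caller, threshold, filter, merging rule, Tn5 offset and pooling of libraries, nothing is stated: they were not given in the sources used here. A headerless table deposited by the authors holds 112696 merged regions, and names the peaks that make up each, the only measurement used. Stage peaks carry a code that matches the labels. Another 40338 regions hold only lifted peaks, whose sets have no definition in the labels, and were not counted.

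The table also has 8 value columns without names, which were used in no step, so depth and precision per library were not used here. The edgeR test planned for named counts was not run.

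Starts were made 1-based, and regions, NCBI gene models and genome sequence were joined with Python 3.11.15, pandas 2.3.3, SciPy 1.17.1 and matplotlib 3.10.9. The overlap code was tested on simulated data. Exact Clopper-Pearson 95% intervals cover counting error alone. The members, lists, motifs and rules were chosen with earlier results of these data known. All regions of the 6 genes are counted, and those named are promoters, the widest and narrowest of a gene, those called at 1 age group alone, and those with the GLI motif. Pathway genes are named when without a region, when their promoter calls differ between stages, or when among the 5 largest E60 and E80 differences. Like loci are the 3 nearest. Others were named after their values were seen. Alternatives were other loci limits, region widths, promoter distances, motif windows, peaks in place of regions, regions without lifted peaks, and each culture left out. Further marker lists are not reported here.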

Additional observations from a re-analysis of the deposited data

Results flagged for a closer look

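Outside the regions with a macaque stage peak, 23 further regions at the 6 loci held only lifted peaks, from sets that the labels do not define. GLI2 had 10 of them, GLI3 7, SUFU 4, PTCH1 1, SMO 1 and GLI1 0. Among all merged regions, 40338 held only lifted peaks, beside 72358 with a macaque stage peak. At the 6 loci the 23 stood beside 83, so such regions made up a smaller share here than among all. They are flagged only because no comparison above uses them. There is no control sample to set them against.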

How the results depend on the processing

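The 31 results were recomputed to give 118 alternative values, of which 86 stayed close and 32 moved. Close was a loose label. It took in a fall from 16 to 11 regions at E60 and not E80 with the 300 bp limit. A fall from 20 to 14 regions with AP-1 within 100 bp also counted as close, as did a rise from 9 to 12 early-only GLI3 regions without the E80 culture. Some alternatives, such as the centre of the region, changed no count. None of the 8 values moved with the gene body alone, with 20 kb upstream, by the centre of the region, or with stage peaks counted, and promoter calls stayed close at 500 and 2000 bp. With regions of at most 1 kb, 7 were called at E50 and 14 at E85. Of at least 300 bp, 11 were called at E60 and not E80 and 3 the other way, 7 and 0 of them at GLI3. Distal regions alone gave 10 at E50. Without lifted peaks the E50, E60, E80 and E85 counts were 1, 14, 17 and 1, with 5 called at E60 and not E80 and 8 the other way, 3 and 1 of them at GLI3. Without the E60 culture, early-only regions fell to 0 at the 6 loci and at GLI3 and late-only regions were 49 and 8. Without the E80 culture, early-only regions were 40 at the 6 loci and late-only regions 0 there and at GLI3. This follows from the nesting of the calls. Within 100 bp, TEAD was in 3 regions, homeobox in 1, CAGCTG in 14, TCF/LEF in 2, NR2F in 5 and MEIS in 13. Over whole regions, GLI was in 2, TEAD in 10, homeobox in 12, CATCTG in 39, the NFI site in 24, POU in 6, RFX in 9 and NR2F in 19, since longer windows hold more letters. AP-1 in the GLI3 regions at E60 alone, a check added after seeing the data, was in 4 of 9 within 100 bp and 5 of 9 over whole regions. No paired analysis was possible because the peak sets are per stage and the value columns carry no library names. The planned count alternatives were not run. With 1 culture per stage, no replicate could be left out.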

Other observations

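Lifted peaks were merged into 61 of the 83 regions (73.5%, beside 63.3% of all regions), and into all 9 regions of PTCH1 and all 3 of GLI1. Regions called at E60 alone held one in 11 of 16 cases (68.8%, beside 50.7% of all regions of that combination). Regions called at E80 alone held one in 2 of 10 (20.0%, beside 27.9%), and none of the 3 such regions of SUFU did.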
